A study of Homo sapiens with 6 samples.

Results

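The PARP family, also called ADP-ribosyltransferases, comprises 17 human enzymes, and 9 of them were examined here together with *DTX3L*, the ubiquitin ligase that partners with PARP9. The 10 genes were *PARP1*, *PARP2*, *PARP3*, *PARP4*, *PARP9*, *PARP10*, *PARP12*, *PARP14*, *PARP16* and *DTX3L*, out of 62710 gene rows analysed. They were listed by name and chosen by their known fold changes between these same libraries, so their values are given as a description and without a test. RNA was sequenced from parental H526 cells, a human small cell lung cancer line of established culture, and from H526 cells made resistant to onvansertib, an inhibitor of the mitotic kinase PLK1. The resistant cells had been kept in onvansertib raised from 10 to 75 nM, and both groups shared the same medium with 5% fetal bovine serum. Each group had 3 libraries, numbered 1, 2 and 3 for parental and 7, 8 and 9 for resistant cells, from RNA harvested at separate times. The resistant cells came from a single selection, so the spread between libraries is that of repeated harvests and not of independent selections, and effects of the drug and of long culture cannot be told apart.

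ADP-ribosyltransferases use NAD+ to attach ADP-ribose to proteins and nucleic acids. PARP1 and PARP2 sense DNA breaks and build chains of ADP-ribose that recruit repair factors, and PARP3 acts in the joining of broken ends. Another branch of the family, which includes PARP9, PARP10, PARP12 and PARP14, is induced by interferon, mostly attaches single ADP-ribose units, and is known for antiviral activity. PARP inhibitors act mainly on PARP1 and PARP2 and are under study in small cell lung cancer.

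On GRCh38, *PARP1* (ENSG00000143799) lies on chromosome 1 from 226360210 to 226408154, *PARP2* (ENSG00000129484) on chromosome 14 from 20343615 to 20357904 and *PARP3* (ENSG00000041880) on chromosome 3 from 51942345 to 51948867. *PARP9* (ENSG00000138496), *DTX3L* (ENSG00000163840) and *PARP14* (ENSG00000173193) lie elsewhere on chromosome 3, from 122527924 to 122564577, 122564338 to 122575203 and 122680839 to 122730840. *PARP12* (ENSG00000059378) lies on chromosome 7 from 140023749 to 140062951, *PARP4* (ENSG00000102699) on chromosome 13 from 24420931 to 24512778 and *PARP16* (ENSG00000138617) on chromosome 15 from 65234460 to 65300618. All values are totals over the exons of a gene.

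The deposited values were normalized gene counts, and a depth between 22395380 and 28511402 reads per library was inferred from the step between low values. A value worth 3 reads, the limit that a listing at 0 allows, averaged 2.83 in parental and 3.16 in resistant libraries, and it covers counting error only. All 10 genes reached the minimum for entering the fit, a mean normalized value of 10, and the lowest, *PARP10* in parental cells, lay well over the limit. The labelled cell type was checked against markers. *POU2F3*, the regulator that defines the tuft-cell type of small cell lung cancer, had a value of 25809 ± 1178 in parental and 27273 ± 535 in resistant cells (SD, n = 3). Of 7 tuft-type markers 3 rose, among them *TRPM5* (from 189 ± 39.2 to 643 ± 116), and 3 fell, among them *AVIL* (from 20954 ± 813 to 12018 ± 264) and *KIT* (from 12519 ± 2123 to 8115 ± 94.4; SD, n = 3 in each). The 4 neuroendocrine markers tested all fell, with log2 fold changes of -4.22 for *CHGA*, -2.28 for *INSM1*, -2.15 for *SYP* and -0.48 for *NCAM1*. Of 8 markers of blood, fibroblast and endothelial cells, 4 were at or under 3 reads in every library, *PTPRC*, *CD3E*, *DCN* and *PECAM1*. The summed value of the 8 ranged from 377 to 521 in parental and from 823 to 1038 in resistant cells, through *COL1A1*, *COL1A2* and *VWF*. The part of these markers in the results was not tested.

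In resistant cells the 5 genes of the interferon-responsive branch were all higher, by 1.43-fold for *PARP9* up to 7.15-fold for *PARP10*, whereas the 3 DNA-repair genes differed by at most 1.26-fold. Fold changes were fitted on log2(value + 1) with limma across the 16347 genes with sufficient signal, and the fit called a gene at a Benjamini-Hochberg adjusted p under 0.05. Of the 10 genes 6 were called, 6 higher and 0 lower in resistant cells, where 37.7% of all genes tested were called, 17.8% higher and 19.8% lower. The groups did not overlap in 8 of the 10, against 49.9% of all genes tested. Since the genes were chosen with this comparison known, nothing is read from these shares. The median log2 fold change was 0.92 for the 5 interferon-responsive genes, 0.13 for the 3 DNA-repair genes and -0.00086 for all genes tested.

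**Figure D1:**
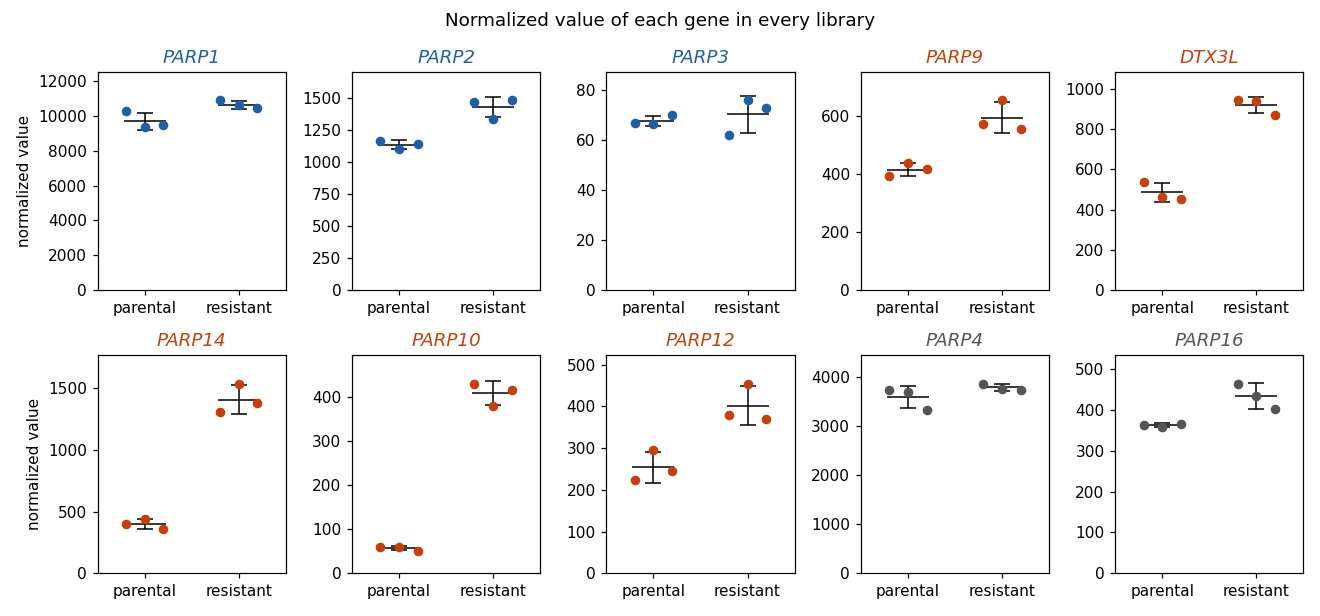
Normalized value (vertical axis, from 0, a separate scale per gene) of each gene in the 3 parental and 3 resistant libraries, drawn left to right as 1, 2, 3 and 7, 8, 9. Points are libraries, bars the mean ± SD (n = 3), and the 2 groups are furthest apart for *PARP10* and *PARP14*.

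*PARP1*, the main sensor of DNA strand breaks, had values of 10269, 9385 and 9454 in parental libraries 1, 2 and 3 and of 10893, 10611 and 10428 in resistant libraries 7, 8 and 9. Every resistant value was above every parental value, but parental library 1 came close to resistant library 9. The log2 fold change was 0.13 (standard error 0.06), and *PARP1* was not called. *PARP2*, the other break-activated polymerase of ADP-ribose, had values of 1169, 1101 and 1142 in parental and of 1470, 1342 and 1485 in resistant libraries. The groups were apart, with resistant library 8 the lowest of its group, and *PARP2* was the only DNA-repair member called, its log2 fold change being 0.33 (standard error 0.08). *PARP3* was low, with values of 66.6, 66.2 and 70.0 in parental and of 61.8, 75.7 and 72.8 in resistant libraries. The groups overlapped, and the log2 fold change was 0.05 (standard error 0.21), so that a moderate difference in either direction was not detectable. The ratio of *PARP2* to *PARP1* values was 0.117 ± 0.00348 in parental and 0.135 ± 0.00801 in resistant cells (SD, n = 3).

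*PARP10*, an enzyme that attaches single ADP-ribose units (ENSG00000178685, chromosome 8 of GRCh38, 143977153 to 144012772), had values of 60.8, 58.8 and 51.4 in parental and of 429, 378 and 415 in resistant libraries. The lowest resistant value was far above the highest parental value, and the log2 fold change was 2.82 (standard error 0.16). Of its exon bases 5.37% lie on exons of *GRINA* on the opposite strand. Nothing in the sources used here states that strand was used in counting, so reads in that stretch could not be assigned with certainty. *GRINA* itself was between 3332 and 3537 in parental and between 3270 and 3576 in resistant libraries.

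*PARP14*, a large macrodomain enzyme that takes part in cytokine and interferon responses, had values of 397, 439 and 363 in parental and of 1302, 1535 and 1379 in resistant libraries, its log2 fold change being 1.81 (standard error 0.10). *DTX3L* had values of 540, 465 and 455 in parental and of 943, 938 and 872 in resistant libraries, its log2 fold change being 0.92 (standard error 0.10). For *PARP9*, which reads ADP-ribose through macrodomains and forms a complex with DTX3L, the values were 393, 437 and 416 in parental and 574, 654 and 554 in resistant libraries. Its log2 fold change was 0.51 (standard error 0.11), the smallest of the 5. *PARP12*, a zinc finger enzyme that restricts viruses, had values of 223, 295 and 244 in parental and of 380, 455 and 371 in resistant libraries, its log2 fold change being 0.66 (standard error 0.14). For these 4 genes every resistant library was above every parental library. Resistant library 8 was the highest of its group for *PARP9*, *PARP12* and *PARP14*, and resistant library 7 for *DTX3L* and *PARP10*, so the 3 resistant libraries did not keep the same order from gene to gene. In bulk RNA a larger share of cells with a transcript and more transcript per cell cannot be told apart.

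*PARP9* and *DTX3L*, which encode partners, differed in how far they were raised. The ratio of the *DTX3L* to the *PARP9* value was 1.37, 1.06 and 1.09 in parental and 1.64, 1.43 and 1.57 in resistant libraries, so the groups were apart but parental library 1 lay close to resistant library 8. The ratio of *PARP14* to *PARP9* was 0.962 ± 0.0772 in parental and 2.37 ± 0.111 in resistant cells (SD, n = 3). These are ratios of normalized values and not of molecules, since the genes differ in length.

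Among the remaining members, *PARP4*, a component of the vault particle, had values of 3734, 3685 and 3327 in parental and of 3856, 3754 and 3731 in resistant libraries. The groups overlapped, and the log2 fold change was 0.08 (standard error 0.07). *PARP16*, an enzyme of the endoplasmic reticulum membrane that acts in the unfolded protein response, had values of 363, 357 and 366 in parental and of 464, 434 and 401 in resistant libraries. The groups did not overlap, but with a fitted log2 difference of 0.26 (standard error 0.11) *PARP16* was not called. The 5 pseudogenes of *PARP1* and *PARP4* in the table were listed at 0 in all 6 libraries.

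Promoter sequences are shown here because 4 of the 5 interferon-responsive members carry a motif of the interferon response. This branch is grouped by its induction by interferon, so the motif is not independent of the grouping. Nothing is read from the share of members that carry it. The table of RefSeq promoter windows (GRCh38.p14), which run from 250 bases before to 50 bases after a gene's start, held 8 of the 10 members, all but *PARP4* and *PARP10*. Those genes were therefore not searched. The core of the interferon-stimulated response element (ISRE), GAAA, any 2 bases and GAAA, searched on both strands, was found in 4 of the 8, *PARP9*, *DTX3L*, *PARP14* and *PARP12*, and in 3.57% of all 35116 windows. *PARP9* and *DTX3L* lie head to head on chromosome 3, with RefSeq starts at 122564300 and 122564338 and 37 bases between them, and the same copy of the motif stands in both windows. It was counted for each gene. This copy begins 41 bases before the *PARP9* start and 6 bases before the *DTX3L* start. A second *PARP9* window, for a start further upstream, held none. In the following lines the motif is in capitals. The stretch shared by *PARP9* and *DTX3L* is chr3:122564322-122564351 on the plus strand, that of *PARP14* is chr3:122680719-122680838 on the plus strand and that of *PARP12* is chr7:140062952-140063071 on the minus strand.
PARP9 and DTX3L: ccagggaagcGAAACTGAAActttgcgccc
PARP14: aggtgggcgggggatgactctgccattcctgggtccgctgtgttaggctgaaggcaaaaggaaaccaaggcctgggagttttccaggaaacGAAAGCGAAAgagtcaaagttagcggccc
PARP12: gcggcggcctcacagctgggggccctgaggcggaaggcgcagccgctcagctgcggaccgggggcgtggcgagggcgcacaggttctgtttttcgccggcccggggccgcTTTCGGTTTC

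For comparison, the windows of *PARP1*, *PARP2*, *PARP3* and *PARP16* held no ISRE core. Among the other family genes with a window none held it either. These were *ZC3HAV1*, *PARP6*, *PARP8* and *TNKS2*, called higher in resistant cells, *PARP11*, called lower, *TIPARP*, not called, and *PARP15*, not tested. The log2 fold change of *ZC3HAV1*, a gene raised by interferon, was 0.98, so motif and rise did not always go together. The bases from 120 to 21 before the start are chr1:226408114-226408213 on the minus strand for *PARP1* and chr14:20343515-20343614 on the plus strand for *PARP2*.
PARP1: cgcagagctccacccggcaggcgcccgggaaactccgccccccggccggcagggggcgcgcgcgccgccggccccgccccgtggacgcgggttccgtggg
PARP2: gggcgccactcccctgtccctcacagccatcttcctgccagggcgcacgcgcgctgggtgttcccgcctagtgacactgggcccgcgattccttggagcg

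In *PARP14* the motif began 29 bases before the start. In *PARP12* it is read on the opposite strand and its first printed base lies 10 bases before the start. A match is a description of letters and not of binding. The gamma-activated site TTCNNNGAA was found in 2 of the 8 members with a window, *PARP14* and *PARP2*, and in 7.66% of all windows. In *PARP14* it began 40 bases before the start and did not overlap the ISRE core. Among the 416 tested genes with the ISRE core in a window, members left out, 23.1% were called higher and 18.5% lower in resistant cells, and their median log2 fold change was 0.04. For the 11642 tested genes with any window these shares were 17.9% and 21.7%, with a median of -0.01.

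The family was also compared per length. Values were divided by the length of the longest annotated transcript, so that the levels of different genes could be compared. In parental cells *PARP1* had the highest level, at 1562 ± 79.1 per kb (SD, n = 3), followed by *PARP4* at 659 ± 40.8 per kb and *PARP2* at 575 ± 17.2 per kb. *PARP16* was at 132 ± 1.71 per kb, and *DTX3L* at 84.4 ± 8.04 and *PARP12* at 84.1 ± 12.2 per kb did not differ beyond their spread. *PARP9* was at 61.4 ± 3.27 per kb and *PARP14* at 47.4 ± 4.49 per kb. *PARP3* at 27.3 ± 0.848 and *PARP10* at 16.3 ± 1.42 per kb were the lowest members. In resistant cells *PARP1* stayed first at 1714 ± 37.8 per kb, and *PARP2* at 723 ± 39.8 and *PARP4* at 695 ± 12.3 per kb overlapped. Among the members alone, *PARP14* at 167 ± 14.1, *DTX3L* at 159 ± 6.86 and *PARP16* at 158 ± 11.5 per kb came next and overlapped. Other family genes lay between, the highest being *TNKS2* at 435 ± 19.5 per kb. *PARP12* followed at 133 ± 15.3 and *PARP10* at 116 ± 7.63 per kb, ahead of *PARP9* at 87.8 ± 7.79 and *PARP3* at 28.4 ± 2.97 per kb. The place of *PARP9* depended on the transcript. With the canonical transcript, 3.045 in place of 6.769 kb, its level was 136 ± 7.27 per kb in parental and 195 ± 17.3 per kb in resistant cells, with a mean above those of *PARP16*, *DTX3L*, *PARP14*, *PARP12* and *PARP10* in both groups. *PARP1* was then at 2439 ± 124 and 2676 ± 58.9 per kb, and still first. Of the summed level per kb of all 17 family genes, *PARP9*, *PARP10*, *PARP12* and *PARP14* together held 4.61% ± 0.527 in parental and 9.12% ± 0.541 in resistant cells (SD, n = 3). *PARP1* held 34.4% ± 0.471 and 31.1% ± 0.143.

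The remaining 8 family genes were taken as the rest of the family's full membership. Of these 7 were tested, and 5 were called higher and 1 lower, where 17.8% of all genes tested were called higher and 19.8% lower. Their median log2 fold change was 0.39. *PARP15*, which lies between *DTX3L* and *PARP14* on chromosome 3, was listed at 0 in all 6 libraries. *ZC3HAV1*, also called PARP13, a catalytically inactive family protein that binds viral RNA and is itself raised by interferon, rose from 779 ± 79.2 to 1541 ± 219 (SD, n = 3; log2 fold change 0.98, adjusted p = 0.000152 by limma). Its values were 848, 798 and 693 in parental and 1737, 1581 and 1305 in resistant libraries. *PARP6* rose by 0.45 on the log2 scale (adjusted p = 0.000666), *PARP8* by 0.42 (adjusted p = 0.00509) and *TNKS*, a tankyrase that acts in telomere maintenance and WNT signalling, by 0.39 (adjusted p = 0.00116 by limma). *TNKS2*, the second tankyrase, rose by 0.25 (adjusted p = 0.0315 by limma). *PARP11* fell from 128 ± 33.2 to 67.7 ± 23.8 (SD, n = 3; log2 fold change -0.93, adjusted p = 0.0251 by limma), and without parental library 1 or 3 or resistant library 7 or 9 its adjusted p by limma lay between 0.0700 and 0.0962. The call of *TNKS2* was lost without parental library 2 or 3 or resistant library 7 or 8, with adjusted p of at least 0.0906 by limma. *TIPARP*, or PARP7, a target of the aryl hydrocarbon receptor, had a fitted log2 difference of -0.22 (adjusted p = 0.0916 by limma). The median log2 fold change of all tested genes was 0.29 on chromosome 15, where *PARP6* lies. It was -0.34 on chromosome 12, where *PARP11* lies, and -0.25 on chromosome 7, where *ZC3HAV1* lies. These are medians of whole chromosomes. No local median was taken for these genes, and the part of the chromosomes in their values was not tested.

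**Figure D2:**
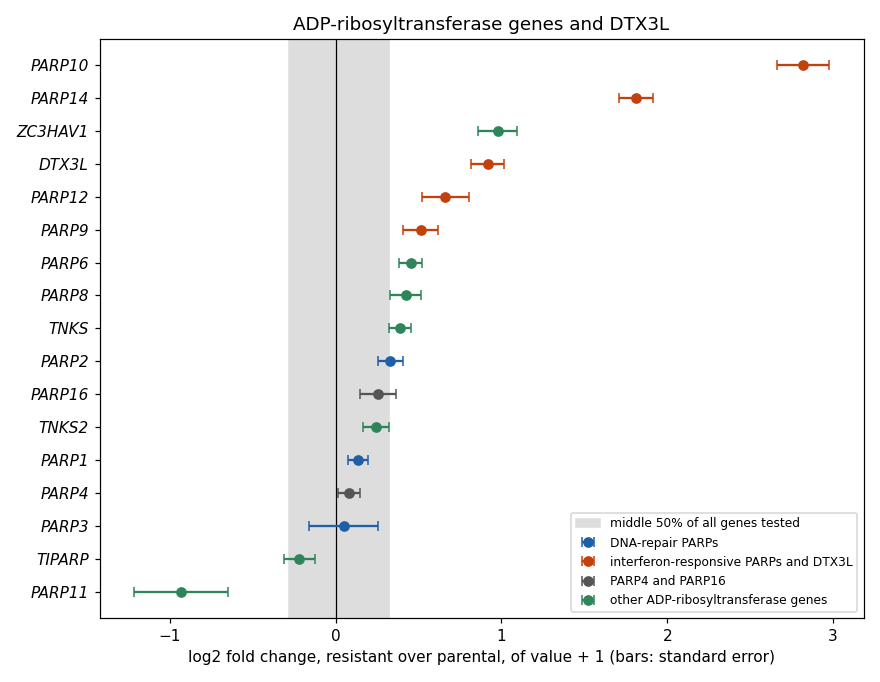
Log2 fold change of value + 1, resistant over parental (horizontal axis), of the 10 members and the 7 other tested family genes; points are fitted values and bars the standard error (3 libraries per group). The grey band holds the middle 50% of all genes tested, from -0.28 to 0.32, and *PARP10* at 2.82 and *PARP11* at -0.93 are the ends of the range.

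*PARP9*, *DTX3L*, *PARP15* and *PARP14* form a cluster on the long arm of chromosome 3, from 122527924 to 122730840. To ask whether the genes around the cluster moved with it, the 11 other tested genes within 500 kb of either end were examined. Of these 1 rose and 1 fell, 9.09% each way, beside 17.8% higher and 19.8% lower over all genes tested. Their median log2 fold change was 0.07, and it was 0.11 without parental library 1, 0.13 without resistant library 8 and 0.04 without resistant library 9. *KPNA1*, an importin that begins 49.6 kb from the *PARP9* start, had a fitted log2 difference of 0.07 (adjusted p = 0.466 by limma), and *HSPBAP1*, 229 kb away on the other side and beyond *PARP14*, one of 0.15 (adjusted p = 0.439 by limma). Next to it *SLC49A4* had a fitted log2 difference of 0.32 (adjusted p = 0.0572 by limma). The non-coding *LINC02035* rose by 0.81 on the log2 scale (adjusted p = 0.0122 by limma), and its adjusted p was 0.0506 without resistant library 8. *SEMA5B*, at 26.1 in parental and 6.99 in resistant cells, fell by 1.65 (adjusted p = 0.0444 by limma), and leaving out parental library 2 or 3 or resistant library 7 or 8 gave adjusted p between 0.0886 and 0.178. For *MIX23*, *FAM162A*, *WDR5B*, *WDR5B-DT*, *PDIA5* and *SEC22A* the log2 fold changes lay between -0.17 and 0.15, with adjusted p of at least 0.265 by limma. *PARP9* and *DTX3L* share 139 exon bases on opposite strands, 1.56% and 2.41% of their exons, and reads there could not be assigned with certainty.

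**Figure D3:**
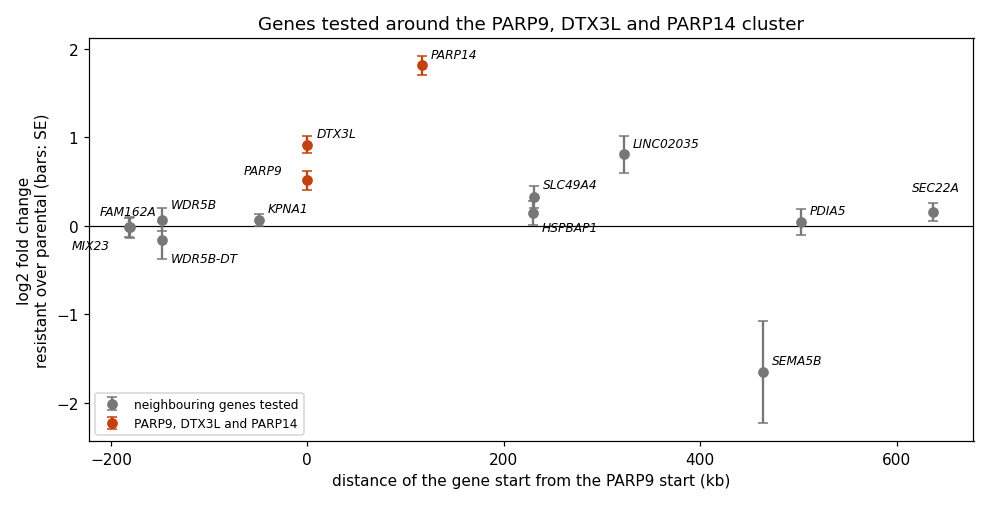
Log2 fold change, resistant over parental, of value + 1 (vertical axis) against the distance of each gene's start from the *PARP9* start in kb (horizontal axis), for *PARP9*, *DTX3L*, *PARP14* and the 11 other tested genes within 500 kb of the cluster; bars are standard errors. *PARP14*, at 1.81, is the highest point and lies between *DTX3L* and *HSPBAP1*.

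Each member was also set beside its 20 nearest tested genes, 10 on each side. The local medians ran from -0.36 around *PARP12* to 0.38 around *PARP2*. *PARP10* and *PARP14* were above all 20 of their neighbours, whose medians were -0.00011 and 0.12. *PARP12*, on chromosome 7, was 1.03 above a local median of -0.36, and 2 of its 20 neighbours had a larger fold change. Around *DTX3L* 1 and around *PARP9* 3 of the same 20 neighbours were higher than the gene. The fold change of *PARP2*, 0.33, was close to its local median of 0.38, and that of *PARP16*, 0.26, was under its local median of 0.35. The local median was 0.18 for *PARP4*, -0.02 for *PARP1* and -0.08 for *PARP3*. Over the whole chromosome the median log2 fold change was 0.38 for the 555 tested genes of chromosome 14, where *PARP2* lies, and -0.25 for the 826 of chromosome 7, where *PARP12* lies. The part of these shifts in the values of the members was not tested.

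**Figure D4:**
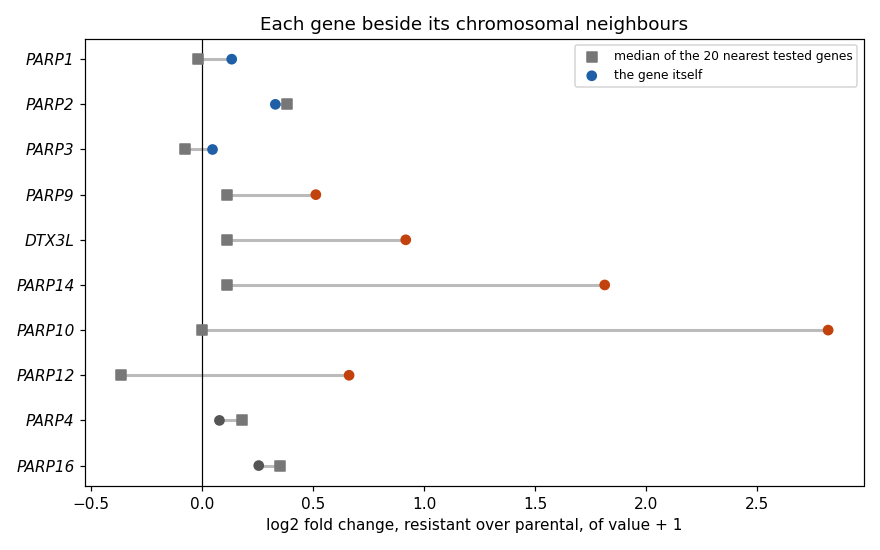
Log2 fold change, resistant over parental, of value + 1 (horizontal axis) of each member (circles, coloured by group) and the median of its 20 nearest tested genes on the same chromosome (squares), joined by a line. The distance is greatest for *PARP10*, 2.82, and smallest for *PARP2*, -0.05.

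Genes that work with the family were taken from lists by function, and their counts stand beside 17.8% higher and 19.8% lower over all genes tested. Of 8 genes that remove or process ADP-ribose, 4 rose and 1 fell, with a median log2 fold change of 0.27. *MACROD1*, a hydrolase of mono-ADP-ribose found in mitochondria, fell from 1571 ± 365 to 799 ± 14.5 (SD, n = 3; log2 fold change -0.95, adjusted p = 0.000669 by limma). Its parental libraries were uneven, at 1186, 1618 and 1911, and the resistant libraries lay between 789 and 816. *NUDT16*, which can cleave ADP-ribose from proteins, rose by 0.38 on the log2 scale (adjusted p = 0.0124), and *ADPRS*, or ARH3, which removes ADP-ribose from serine, by 0.26 (adjusted p = 0.0133 by limma). The call of *ADPRS* was lost without parental library 3 (adjusted p = 0.0554 by limma). *PARG*, the main enzyme that degrades poly(ADP-ribose), rose by 0.27 (adjusted p = 0.0365) and *ADPRH* by 0.83 (adjusted p = 0.0355 by limma). Without parental library 2 or resistant library 7 or 9 neither of them was called, *PARG* was also not called without parental library 3 nor *ADPRH* without parental library 1, and the largest adjusted p were 0.133 and 0.101 by limma.

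Of 17 partners in single-strand break and base excision repair 16 were tested, and 1 rose and 6 fell. Their median was -0.10, but -0.05 without parental library 1 or parental library 2. The glycosylases that excise uracil or thymine from DNA were among the lower genes. *UNG* fell from 4470 ± 210 to 2828 ± 110, *TDG* from 4041 ± 393 to 2188 ± 212 and *SMUG1* from 974 ± 13.5 to 522 ± 60.7 (SD, n = 3 in each), with a largest adjusted p of 9.38e-05 by limma. All of these genes lie on chromosome 12, whose 835 tested genes had a median log2 fold change of -0.34. *NTHL1* fell by 0.58 on the log2 scale (adjusted p = 0.00129) and *NEIL1* rose by 1.03 (adjusted p = 0.00598 by limma). *HPF1*, which directs PARP1 to serine, and *XRCC1*, the scaffold recruited by poly(ADP-ribose), were looked up after values had been seen and had log2 fold changes of -0.01 and 0.05 (adjusted p = 0.951 and 0.601 by limma). *APLF* was under the minimum mean.

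NAD+ is the substrate of the family. Of 19 genes of its synthesis and use 16 were tested, and 3 rose and 5 fell. Their median was -0.0048 and changed sign with single libraries left out, between -0.08 without resistant library 8 and 0.05 without parental library 2. *NMNAT2*, the cytosolic enzyme that completes NAD+ synthesis, fell from 2172 ± 224 to 968 ± 169 (SD, n = 3; log2 fold change -1.17, adjusted p = 6.17e-05 by limma). *NAMPT*, the rate-limiting enzyme of the nicotinamide salvage route, fell from 2537 ± 4.77 to 1840 ± 28.4, and *NAPRT*, which opens the nicotinic acid route, rose from 3065 ± 302 to 4040 ± 49.2 (SD, n = 3; adjusted p = 0.000283 and 0.00249 by limma). *NAMPT* lies on chromosome 7, whose 826 tested genes had a median log2 fold change of -0.25. *SARM1*, a consumer of NAD+, fell by 0.38 on the log2 scale (adjusted p = 0.00333), and the mitochondrial deacylase *SIRT3* rose by 0.74 (adjusted p = 0.00488 by limma). *CD38*, *BST1* and *NNMT* were under the minimum mean.

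*DTX3L* belongs to the Deltex family of ubiquitin ligases. Of 7 genes for other Deltex proteins and for ubiquitin ligases that read ADP-ribose or its targets, 1 rose and 2 fell. Their median was -0.28 and rested on single libraries, at -0.000735 without resistant library 9, -0.15 without parental library 2 and -0.16 without resistant library 7. *DTX3* fell by 0.52 on the log2 scale (adjusted p = 0.00093), *RNF114* fell by 0.38 (adjusted p = 0.00302) and *DTX4* rose by 0.39 (adjusted p = 0.00823 by limma). *DTX2* had a log2 fold change of -0.28 and *RNF146*, which reads poly(ADP-ribose), of -0.07 (adjusted p = 0.14 and 0.643 by limma). *DTX3* lies on chromosome 12 and *DTX2* on chromosome 7, whose tested genes had median log2 fold changes of -0.34 and -0.25.

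For the interferon signal chain, from receptors to the factors that bind the motifs above, 5 of 11 genes rose and 0 fell, with a median of 0.33. *IFNAR1* rose from 1376 ± 42.2 to 3316 ± 120, *IFNAR2* from 564 ± 42.9 to 1284 ± 69.3 and *IFNGR2* from 1307 ± 39.7 to 2671 ± 90.1 (SD, n = 3 in each), with a largest adjusted p of 9.14e-06 by limma. These receptor genes lie on chromosome 21, whose 199 tested genes had a median log2 fold change of 1.00. *IRF1*, an inducible factor that binds the ISRE core, had values of 121, 177 and 124 in parental and of 224, 643 and 570 in resistant libraries (log2 fold change 1.65, adjusted p = 0.00393 by limma). *TYK2* rose by 0.34 (adjusted p = 0.0201 by limma), and its adjusted p lay between 0.0646 and 0.0820 without parental library 1 or 3 or resistant library 8. *STAT2* and *IRF9*, which act in the response to type I interferon, were looked up after values had been seen and had log2 fold changes of 0.20 and 0.33 (adjusted p = 0.124 and 0.166 by limma).

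**Figure D5:**
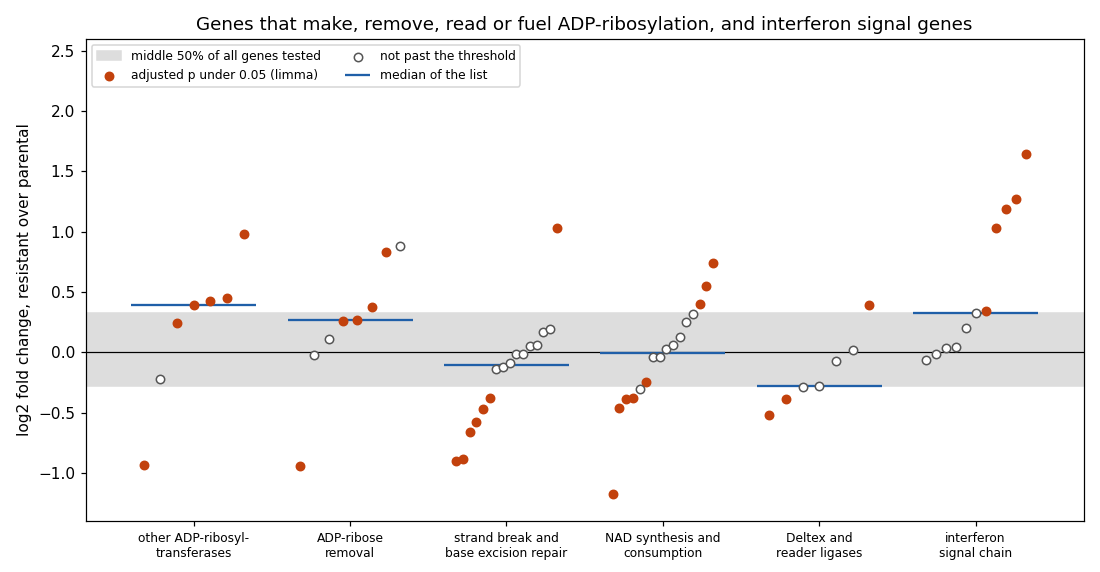
Log2 fold change, resistant over parental, of value + 1 (vertical axis) of the tested genes of 6 lists (horizontal axis), sorted within each list; filled points had an adjusted p under 0.05 by limma, open points did not, and blue lines are medians. The grey band holds the middle 50% of all genes tested; the medians run from -0.28 for Deltex and reader ligases (-0.000735 without resistant library 9) to 0.39 for the other ADP-ribosyltransferases.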

How the data were processed

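The authors trimmed reads with Trimmomatic 0.38, aligned and quantified them with RSEM 1.3.1 on the GRCh38 primary assembly with Gencode v43, and deposited gene counts after DESeq2 normalization, a signal that is never negative, with libraries kept apart. Because the values were not whole counts, the count test of the study was not run. Between 60.1% and 66.6% of values under 10 reads were within 0.1 of a whole multiple of a library's step, so whole reads were not recovered. Of 62757 rows, 47 second copies of pseudoautosomal genes were left out. Symbols and positions came from Gencode v44 (GRCh38) for 62639 of the 62710 other rows.

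Genes reaching a mean of 10 entered a limma model (version 3.58.1 under R 4.3.3) of log2(value + 1) on resistance alone. Variances were moderated by eBayes with a mean-variance trend, and p-values were adjusted over all genes tested by the Benjamini-Hochberg method, with a threshold of 0.05. The 1 added to each value before taking log2 understates changes of low genes. The steps were tested on simulated data. The members, the lists and the tests were chosen with earlier results of these data known. The genes named were the members, all tested family genes, all tested neighbours of the cluster and up to 5 genes of each other list with the smallest p. Refits used a pseudocount of 0.1 or 10, all genes or those with a mean of 50, TMM or quantile scaling, a constant prior variance, or 5 of the 6 libraries, and 40 neighbours replaced 20. Canonical in place of longest transcript lengths were added after the data were seen. Python 3.11.15 was used for other steps.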

Additional observations from a re-analysis of the deposited data

How the results depend on the processing

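No paired analysis was possible because the groups share no replicate numbers: RNA was harvested at separate times, and pairing by harvest is plausible, but no label says which parental library goes with which resistant library. The 5 interferon-responsive genes and *PARP2* stayed past the threshold under all 13 alternatives fitted. The members were chosen by their fold changes in these same libraries, so the refits describe the processing and are no test of the members. *PARP4*, *PARP16* and *PARP3* were past it under none, and *PARP1* under 2, quantile normalization (log2 fold change 0.27) and without parental library 1 (0.18). Of the 130 fold changes of members refitted, 2 were below 0, both of *PARP3*, the lowest -0.14 with quantile normalization. The median of the DNA-repair members was 0.27 with quantile normalization and 0.11 to 0.18 with a library left out, and that of the interferon-responsive members was 0.87 to 0.99 with a library left out. The cause of these shifts was not tested. With no filter 3 of the ADP-ribose removal genes were called, as with 4 of the libraries left out in turn (range 3 to 5). Of the neighbours of the cluster 1 was called with a minimum mean of 50, where *SEMA5B* was no longer tested, and 1 without the trend, and 0 to 2 with a library left out. With 40 neighbours the local median around *PARP12* was -0.28. Of the 40 around *PARP14*, 1 then had a larger log2 fold change, 2.73 against 1.81, while *PARP10* stayed above all of its own. Scaling moved the median of all genes by at most 0.01. Without resistant library 8, 4784 genes were called over the whole table, the fewest under any alternative. Groups of 3 libraries are too small to identify a library that stands apart.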
